A study of Mus musculus with 12 samples.

Results

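The cytosolic ribosomal protein genes encode the proteins of the ribosome that works in the cytoplasm. They were followed here in B cells that had matured and were taken from the bone marrow of mice. Members were the genes with an Rpl or Rps symbol and a number, together with Rpsa, Rplp0, Rplp1 and Rplp2. S6 kinase genes, Rps19bp1, Rpl7l1, Rps27l and pseudogenes were left out. This gave 86 of the 27179 genes in the count table, of which 50 belong to the large (60S) subunit, 33 to the small (40S) subunit and 3 to the P stalk of the large subunit. In all, 77 were the main gene of their protein and 9 were extra copies (Rpl3l, Rpl10l, Rpl22l1, Rpl32l, Rpl36al, Rpl37rt, Rpl39l, Rps23rg1 and Rps27rt). After the filter on low counts 84 were tested, and Rpl10l and Rpl39l were not.

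The cells of C57BL/6 mice were sorted on high B220, on IgM and on the absence of CD93, and 12 RNA-seq libraries fell into 4 groups of 3. Old wild-type mice were 98, 99 and 100 weeks of age, and young wild-type mice 9, 10 and 11 weeks. Apoptosis-resistant (Bak-/- BaxD/D) and apoptosis-sensitive (Bak-/- Baxfl/fl) mice were 10 weeks of age. Both of these groups lack BAK, and they differ in BAX, the other effector that permeabilises the outer mitochondrial membrane in apoptosis. The sources used here do not say what deleted Bax or in which cells. The age comparison asks what differs between old and young wild-type cells, and the Bax comparison what differs when the cells lose this route of death.

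Each cytosolic ribosome is built from ribosomal RNA and a nearly fixed set of proteins, so the genes are usually made at matched rates in growing cells. Most vertebrate ribosomal protein mRNAs begin with a short run of pyrimidines, the 5′ terminal oligopyrimidine (TOP) motif, through which mTOR and LARP1 control their translation together with that of the elongation factors. Resting B cells hold few ribosomes and make many more when they are activated, and many of these genes have left processed copies in the mouse genome.

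The collection date structured the libraries. The labels give each old library the same date as 1 young library, and each apoptosis-resistant library the same date as 1 apoptosis-sensitive library. Values are listed in the order 24 March, 11 April and 12 April in the wild-type groups and in the order 30 May, 31 May and 7 May in the Bak1-deficient groups. The labels give the year as 2006 for 24 March and 2016 for all other dates. No date was shared between wild-type and Bak1-deficient libraries, so genotype and date cannot be told apart there. Total counts were 13474162 to 23539764 per library. Bax stood at 4.96 to 8.36 CPM (counts scaled to a common library size after TMM scaling) in apoptosis-resistant libraries against 55.7 to 100.06 in apoptosis-sensitive libraries, and Bak1 at 6.17 to 14.4 CPM in the Bak1-deficient libraries against 24.7 to 47.8 in wild type. All 10 B cell markers examined were tested, and their summed level was 13082 to 20730 CPM.

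Windows of 25 bases ran from 10 bases before to 15 bases after the annotated RefSeq start (GRCm38.p6). They were searched on the strand that reads like the mRNA for CTTTC, a C followed by pyrimidines. CTTTC was accepted anywhere in the window, so a match need not lie where the mRNA begins and does not measure the TOP motif. It was present in 22.1% of 77 windows of 66 ribosomal protein genes, against 3.1% of 32851 windows of all genes. The windows below are shown because their genes carry results further on, and the capitals mark CTTTC. Rps27 (chr3:90213634-90213658, minus strand) and Rps27rt (chr9:114982725-114982749, minus strand) are a gene and its extra copy. Rpl27a (chr7:109519185-109519209, plus strand) and Rpl28 (chr7:4792955-4792979, plus strand) belong to the large subunit. Rplp2 (chr7:141447641-141447665, plus strand) is a P stalk gene.
Rps27: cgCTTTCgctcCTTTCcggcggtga
Rps27rt: ttatcccttgCTTTCcggcggtgac
Rpl27a: cgtgagctcctcccttttccCTTTC
Rpl28: tctcgtgtctctCTTTCcgtctccg
Rplp2: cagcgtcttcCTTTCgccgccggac
The windows of Rps27 and Rps27rt share a run of 14 bases, CTTTCcggcggtga, with other bases before it. In the 250 bases before to 50 bases after the start, CCGGAAG, on either strand the core of sites bound by ETS factors such as GABP, was found in 33.8% of the members' windows against 8.86% of all. GCCATC or AAGATGG on either strand, the core of YY1 sites, was found in 29.9% against 17.2%, and TATAAA, the core of the TATA box, in 10.4% against 13.6%. The motifs are matches of letters and were not tested for binding.

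Sequence shared between copies decides whether a read can be given to 1 gene. The coding sequences of Rps27 and Rps27rt, 252 bases each without the stop codon, had 0 mismatches in the GENCODE M21 transcripts (GRCm38), so 1 line shows both. Rpl36a (chromosome X) and Rpl36al (chromosome 12), 318 bases each, had 39 mismatches and 87.7% identity. Their leading 150 bases are shown with the 23 bases that differ there in capitals.
Rps27 and Rps27rt: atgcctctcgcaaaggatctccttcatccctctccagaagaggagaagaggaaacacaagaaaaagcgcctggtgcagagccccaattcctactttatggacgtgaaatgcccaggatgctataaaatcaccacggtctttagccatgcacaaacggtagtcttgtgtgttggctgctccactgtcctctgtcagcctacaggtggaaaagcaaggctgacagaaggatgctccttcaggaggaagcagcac
Rpl36a: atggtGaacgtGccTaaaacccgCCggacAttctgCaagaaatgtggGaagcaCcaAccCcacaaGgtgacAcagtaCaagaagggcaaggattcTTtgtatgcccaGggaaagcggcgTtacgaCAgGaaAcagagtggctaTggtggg
Rpl36al: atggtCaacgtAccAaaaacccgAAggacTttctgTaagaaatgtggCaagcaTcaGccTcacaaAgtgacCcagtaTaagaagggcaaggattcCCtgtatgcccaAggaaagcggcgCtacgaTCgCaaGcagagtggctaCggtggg
Rpl10 and Rpl10l were 84.7% identical over the coding sequence, and Rpl39 and Rpl39l 85.0%. The sources used here do not say whether reads that match several places were counted, so the level of each such gene is uncertain.

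Together the 86 genes took a small part of each library. Their summed share of counts was 0.412%, 1.24% and 0.911% in old libraries, against 0.375%, 1.23% and 1.16% in young libraries. It was 1.13%, 1.12% and 1.71% in apoptosis-resistant libraries, against 1.08%, 1.05% and 1.81% in apoptosis-sensitive libraries. Libraries of the same date lay close together except on 12 April, when the old library had 0.784 times the share of the young library. The groups of each comparison overlapped. The highest share was 4.82 times the lowest. Wilson 95% intervals reached at most 0.00574 percentage points to either side, which covers counting error only. By part of the ribosome, the 40S genes took 0.161%, 0.572% and 0.382% of the counts in old libraries against 0.140%, 0.565% and 0.534% in young libraries. The 60S genes took 0.229%, 0.547% and 0.446% in old libraries against 0.217%, 0.550% and 0.519% in young libraries. The P stalk genes took 0.0213%, 0.117% and 0.0829% in old libraries against 0.0187%, 0.112% and 0.109% in young libraries. The 24 March libraries were the lowest in all 3 parts. The median log2 ratio of that date to the other wild-type dates was -1.36 in the 40S genes, -0.34 in the 60S genes and -2.31 in the P stalk genes, and the difference between parts was not tested. Over the whole family, the old group averaged 0.853% ± 0.415 and the young group 0.921% ± 0.474 (SD, n = 3 each). The apoptosis-resistant group averaged 1.32% ± 0.336 and the apoptosis-sensitive group 1.31% ± 0.428 (SD, n = 3 each).

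**Figure D1:**
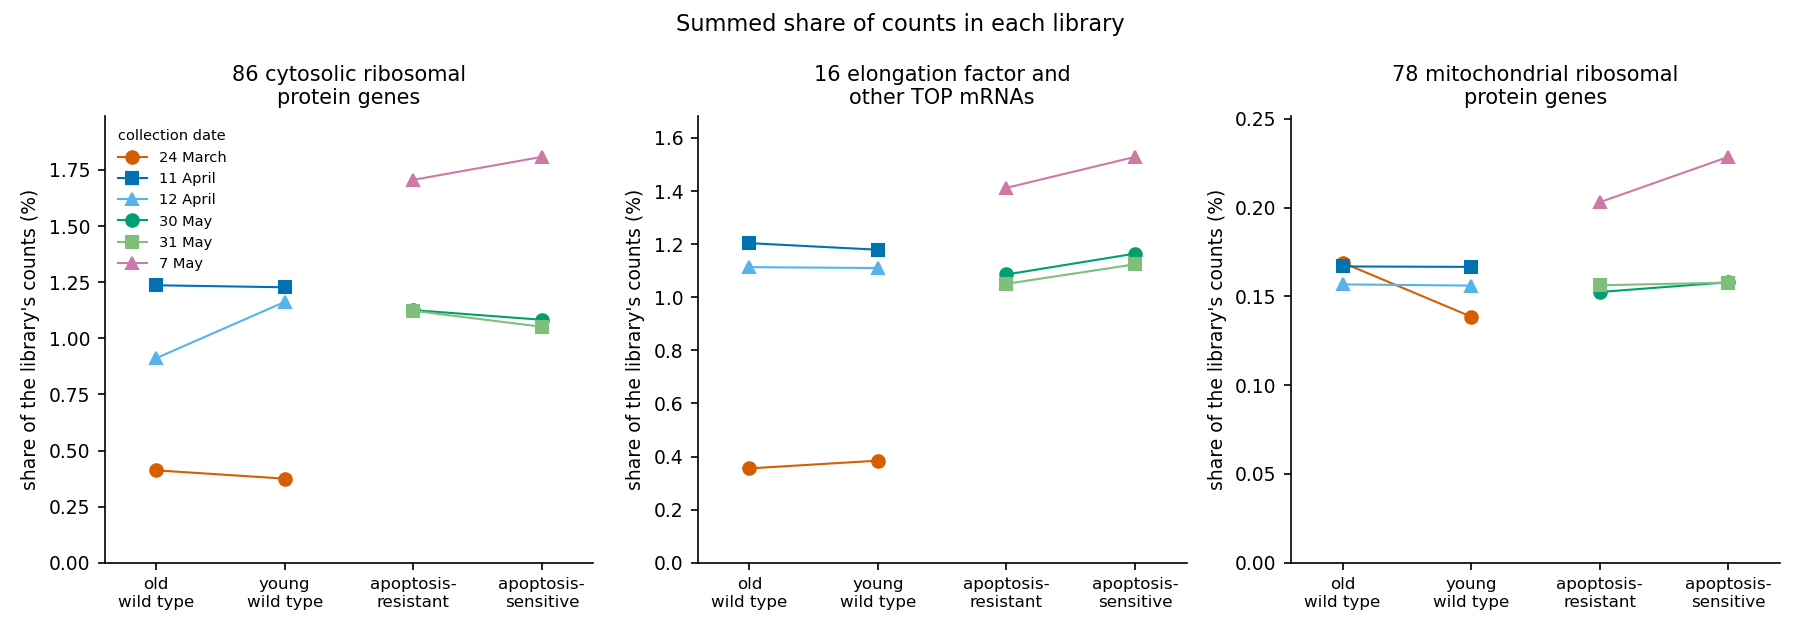
Share of each library's counts (%) taken by cytosolic ribosomal protein genes, by 16 elongation factor and other TOP mRNAs and by mitochondrial ribosomal protein genes; a point is 1 library and a line joins the libraries of 1 collection date. The 24 March pair is lowest in the left and middle panels (0.412% and 0.375% on the left) and the 7 May pair is highest in all 3 panels.

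The 24 March pair held fewer ribosomal protein counts than the other wild-type libraries, and the difference was uneven between genes. In 52 of the 84 tested genes both libraries of that date were below all 4 other wild-type libraries, as were 29.7% of all genes tested. In 19 genes both were above them, as were 26.9% of all genes. The median log2 ratio of the date to the other dates was -0.86 within the old group and -1.07 within the young group, against -0.06 and -0.04 over all genes, on the log2(CPM + 0.1) scale. Across the 84 genes the ratios of the old and of the young library had a Spearman rho of 0.93, given as a description, since the libraries share the date. The 52 lower genes comprised 25 of the 40S, 24 of the 60S and all 3 of the P stalk, and the 19 higher genes 7 of the 40S and 12 of the 60S.

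Among the lower genes were the most abundant members. Rps14, a small subunit protein at the mRNA exit, stood at 52.6, 446 and 224 CPM in old libraries against 59.3, 459.6 and 438 CPM in young libraries. Rpsa, the laminin receptor homologue of the small subunit, stood at 47.0, 314 and 276 CPM in old libraries against 61.8, 313 and 289 CPM in young libraries. In both genes the library of 24 March was the lowest of its group by several fold. Rps27rt had the lowest ratio within the young group. Rpl4, a large subunit protein of the exit tunnel, stood at 392, 1214 and 1253 CPM in old libraries against 407, 1323 and 1283 CPM in young libraries.

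The higher genes went the other way in the same libraries. Rps28 had 6.21, 1.33 and 1.18 CPM in old libraries against 6.98, 1.97 and 1.78 CPM in young libraries. Rps13 had 23.6, 8.34 and 10.1 CPM in old libraries against 43.1, 9.93 and 9.36 CPM in young libraries. Rpl10, a large subunit protein that joins late in assembly, had 82.4, 35.3 and 49.3 CPM in old libraries against 126, 46.4 and 36.1 CPM in young libraries. In these 3 genes the library of 24 March was the highest of its group. Rps27a, made as a fusion of ubiquitin with a small subunit protein, had 30.7, 13.7 and 14.6 CPM in old libraries against 35.4, 13.6 and 12.6 CPM in young libraries.

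**Figure D2:**
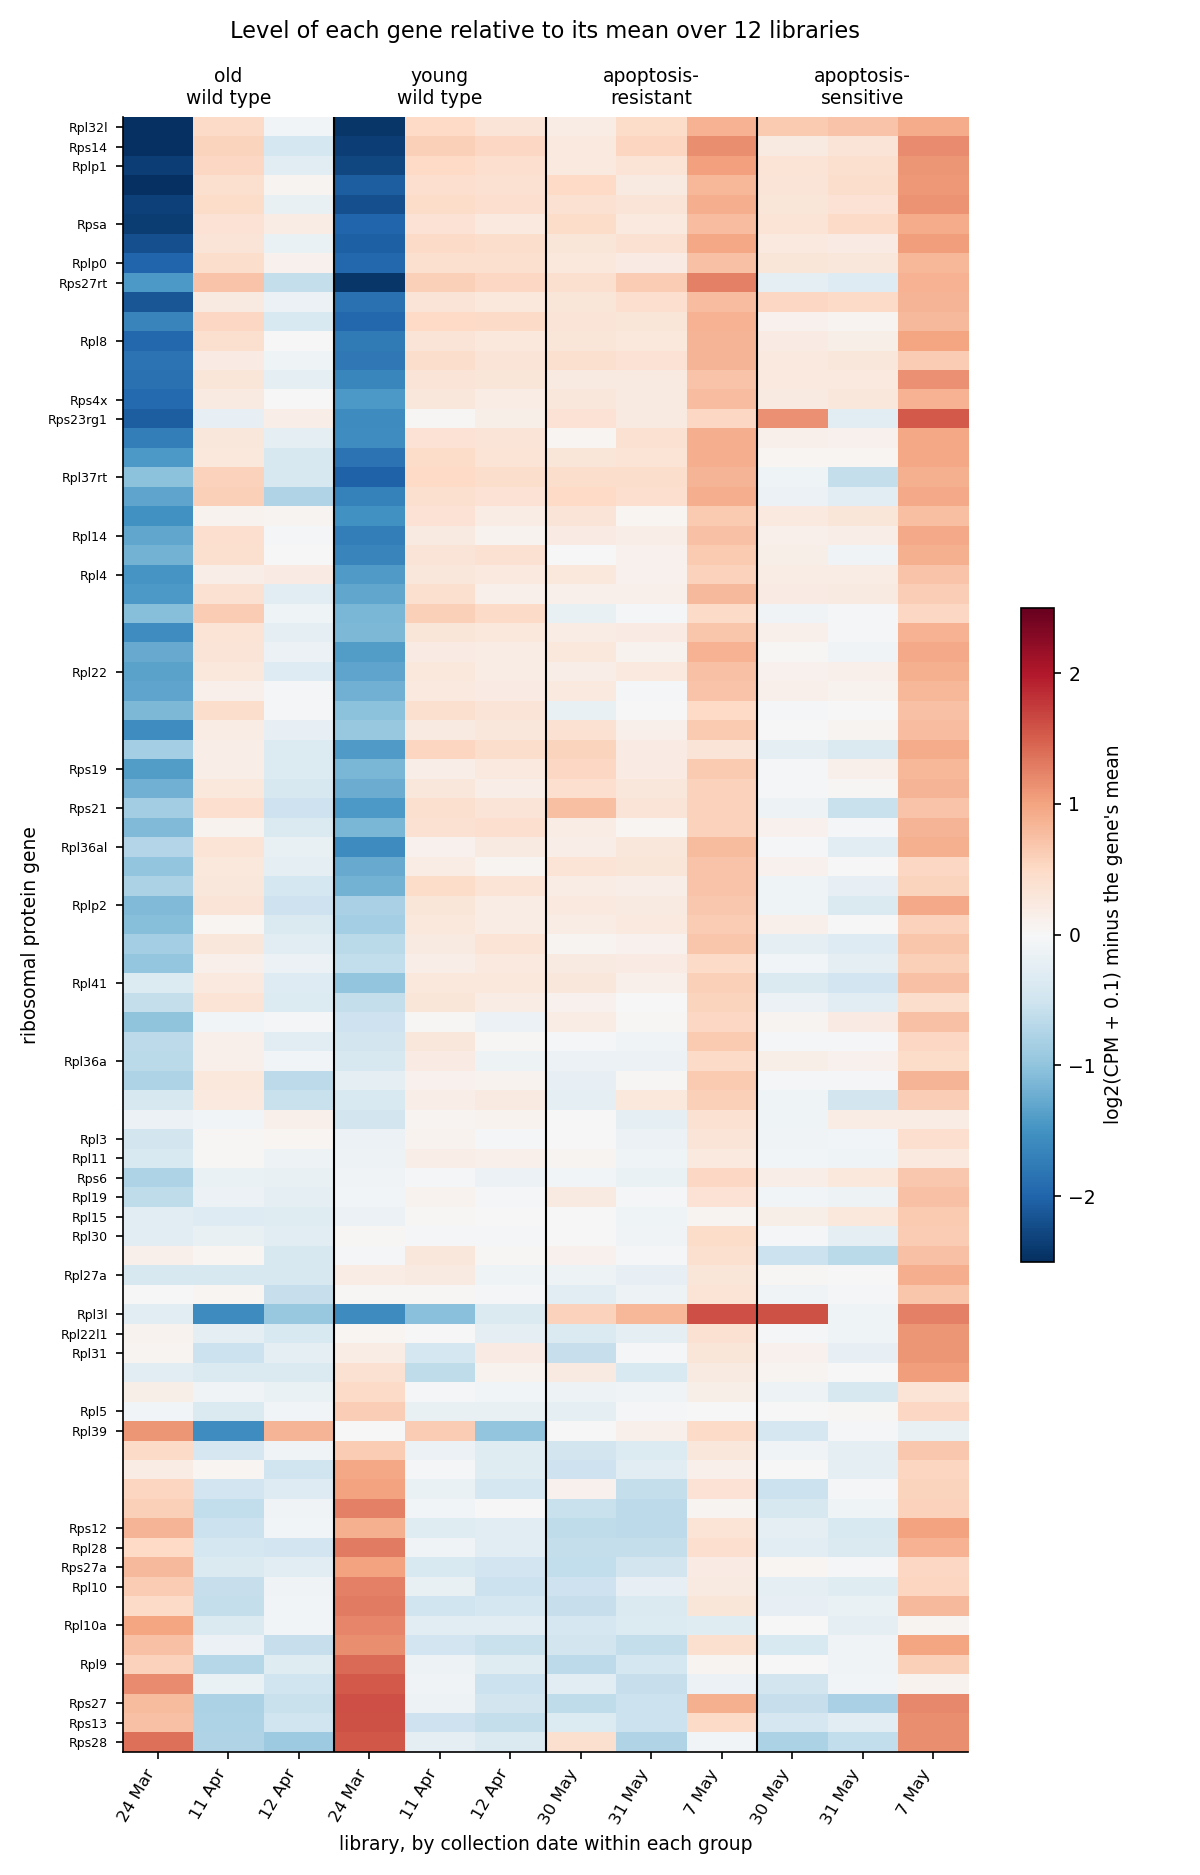
Level of the 84 tested genes in each library as log2(CPM + 0.1) minus the gene's mean over 12 libraries (red, above; blue, below), with the genes chosen by rule and Rps28 labelled and all genes ordered from the lowest to the highest ratio of 24 March to the other wild-type dates. The 24 March columns are blue at the top, from Rpl32l and Rps14, and red at the bottom, to Rps28, and the 7 May columns are red for most genes.

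The higher and lower genes differed in level and in how much sequence they share with other genes. The median level over 12 libraries was 16.6 CPM in the 19 higher genes and 101 CPM in the 52 lower genes. As a measure of shared sequence, each member's main coding transcript was cut into windows of 100 bases, and the share of windows also present in another gene's GENCODE transcript, on either strand, was taken. Its median was 73.5% in the higher genes and 34.3% in the lower genes. Of 27 genes with less than 30% shared windows, 23 were lower and 1 was higher on 24 March. Of 18 genes with at least 70%, 5 were lower and 10 were higher. Over 82 genes with such windows, the 24 March ratio had a Spearman rho of 0.51 with the shared part and -0.78 with the mean level. These are descriptions across genes of the same libraries, and genes are not independent replicates. The mean level includes the 24 March libraries. The part of read assignment in these ratios was not tested. The 24 March libraries had total counts of 19095927 (old) and 13474162 (young), and the B cell markers summed to 13082 and 20098 CPM in them. The part of depth and of other cells was not tested.

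**Figure D3:**
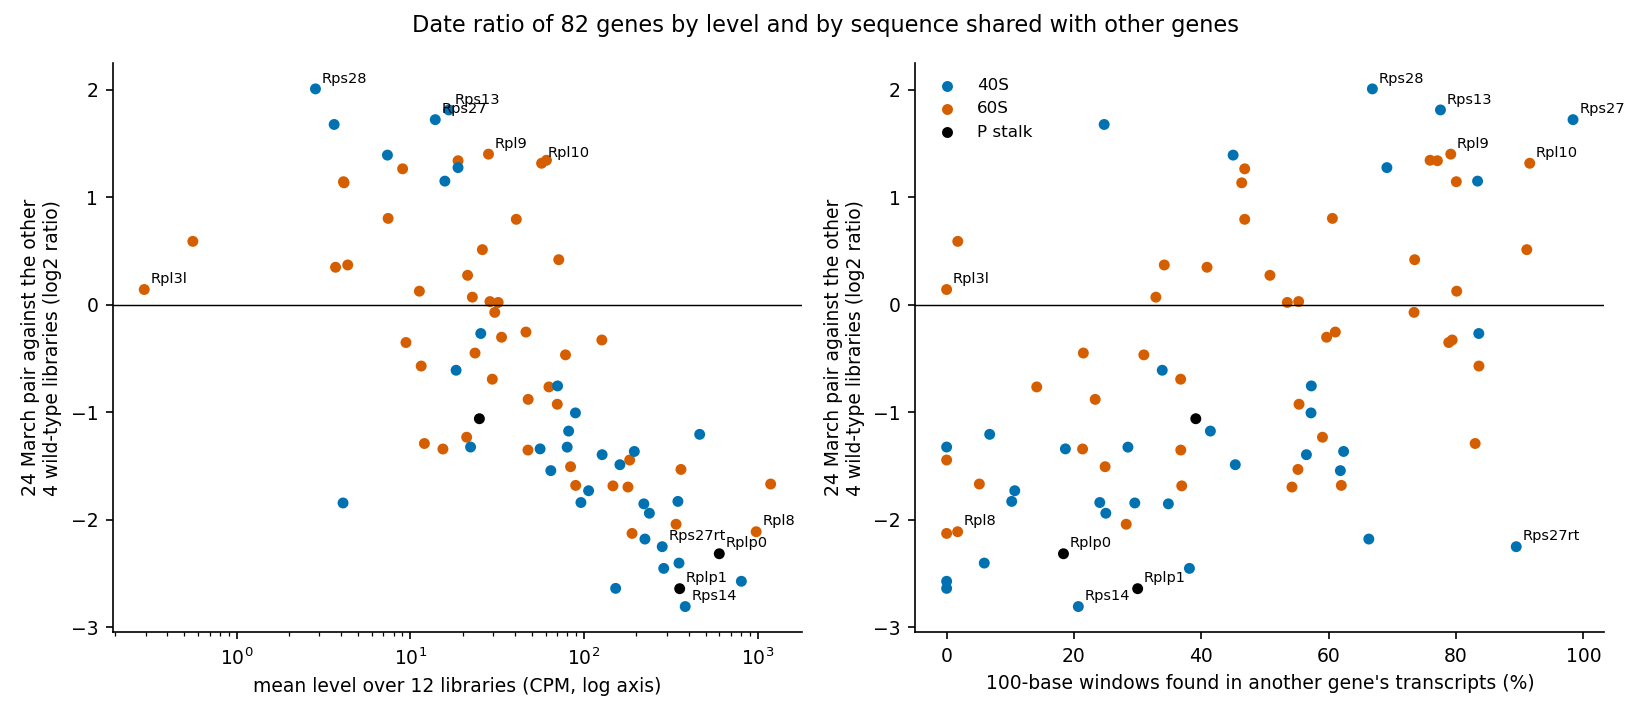
Log2 ratio of the 24 March pair to the other 4 wild-type libraries for 82 genes, against the mean level over 12 libraries (CPM, log axis) on the left and against the percentage of 100-base windows shared with other genes on the right. Abundant genes such as Rps14 and Rplp1 lie below 0, and Rps27 and Rps27rt lie on opposite sides of 0 although both share most windows.

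The 7 May pair stood apart in 1 direction. Both libraries of that date were above the other 4 Bak1-deficient libraries in 73 of the 84 genes, against 22.5% of all genes tested, and below them in 0, against 23%. The median log2 ratio was 0.52 within the apoptosis-resistant group and 0.78 within the apoptosis-sensitive group, against 0.01 and -0.01 over all genes. All 84 genes had a ratio above 0 in the apoptosis-sensitive group and 82 in the apoptosis-resistant group. The Spearman rho between the groups' ratios was 0.21 over the 84 genes. The 24 March ratio and the 7 May ratio had a rho of 0.13.

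Levels differed widely between the genes of a complex that holds 1 copy of most of its proteins. Per kilobase of exon, the mean level over 12 libraries was highest for Rpl8 (937 CPM per kb), Rpl4 (771), Rps27rt (753) and Rplp1 (711). The exon length joins the exons of all coding transcripts of a gene. It was lowest among tested genes for Rpl3l (0.184 CPM per kb), Rpl39 (0.915), Rps23rg1 (2.30) and Rpl31 (2.48). Rpl31 and Rpl39 encode large subunit proteins at the exit tunnel, and Rpl3l is a muscle copy of Rpl3. The median over 84 genes with an exon length was 48.8 CPM per kb. Rpl39 had 2 to 24 reads per library, Rpl3l 0 to 17, Rpl39l 0 to 6 and Rpl10l a total of 1 read. A count of 0 allows 0.127 to 0.223 CPM, depending on the library.

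The spread within groups differed between genes. The pooled SD of log2 CPM within groups was 1.20 for Rps14, 1.18 for Rpl32l and 1.12 for Rplp1, and 0.148 for Rpl15, 0.184 for Rpl11 and 0.241 for Rpl3. Rpl11, which with Rpl5 binds MDM2 when ribosome assembly fails, had 25.7, 34.1 and 30.6 CPM in old libraries against 30.6, 37.5 and 36.4 CPM in young libraries. Rpl5 had 24.4, 19.7 and 24.2 CPM in old libraries against 39.0, 22.4 and 22.3 CPM in young libraries. Rpl3, which builds the peptidyl transferase region, had 91.4, 129 and 130.1 CPM in old libraries against 113.5, 133 and 123 CPM in young libraries. In all 3 genes the old and young libraries overlapped.

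In the age comparison none of the 84 genes passed the test. With edgeR's quasi-likelihood test 0 genes had an adjusted p below 0.05, against 2.01% of all genes tested, 0 had an unadjusted p below 0.05, against 11.6%, and DESeq2 called 0. The median log2 fold change of old over young cells was -0.22, against -0.03 over all genes, and 79 of the 84 genes were below 0, against 54.3% of all genes. The count above 0, which was 5, became 45 without old replicate 1, 37 without young replicate 2, 25 without young replicate 3 and 19 without young replicate 1. It was 8 and 12 without old replicates 2 and 3. The lowest values were -0.65 ± 0.71 (SE) for Rps27, -0.58 ± 0.46 for Rpl9, -0.56 ± 0.65 for Rps13 and -0.55 ± 0.51 for Rpl28. The highest were 0.54 ± 0.72 for Rpl39, 0.17 ± 1.19 for Rpl3l, 0.10 ± 0.50 for Rpl14 and 0.09 ± 0.46 for Rpl36al. The median SE was 0.46 over the 84 genes and 0.31 over all genes. With the collection date as a block it was 0.14 in both.

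The size of the difference varied with the date and with single libraries. The median log2 ratio of the old to the young library was -0.17 on 24 March, -0.06 on 11 April and -0.35 on 12 April, against -0.06, -0.01 and 0.01 over all genes. The old library was the lower on all 3 dates in 29 of 84 genes, against 25.2% of all genes, and the higher on all 3 in 0, against 22.8%. Leaving out old replicate 1, of 24 March, brought the median fold change to 0.03, and leaving out young replicate 2, of 11 April, brought it to -0.03. Without old replicate 2 it was -0.44, and without young replicate 1 it was -0.39. With both 24 March libraries left out it was -0.20.

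With the collection date as a block, 2 of the 84 genes, Rpl27a among them, fell in old cells, against 7.03% of all genes. None rose, against 7.89% of all genes, and 14.9% of all genes were called in either direction. At an unadjusted p below 0.05 there were 18 of the 84 with the block, against 30.1% of all genes. Rpl27a, a large subunit protein, stood at 16.6, 16.6 and 16.5 CPM in old libraries, against 25.04, 25.6 and 20.5 CPM in young libraries. The old libraries lay below all young libraries. The log2 fold change was -0.51 ± 0.25 (SE, adjusted p = 0.486, edgeR) without the block and -0.51 ± 0.13 (adjusted p = 0.0248) with it. With the block and without the 24 March pair, 0 of the 84 genes passed, against 6.72% of all genes.

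**Figure D4:**
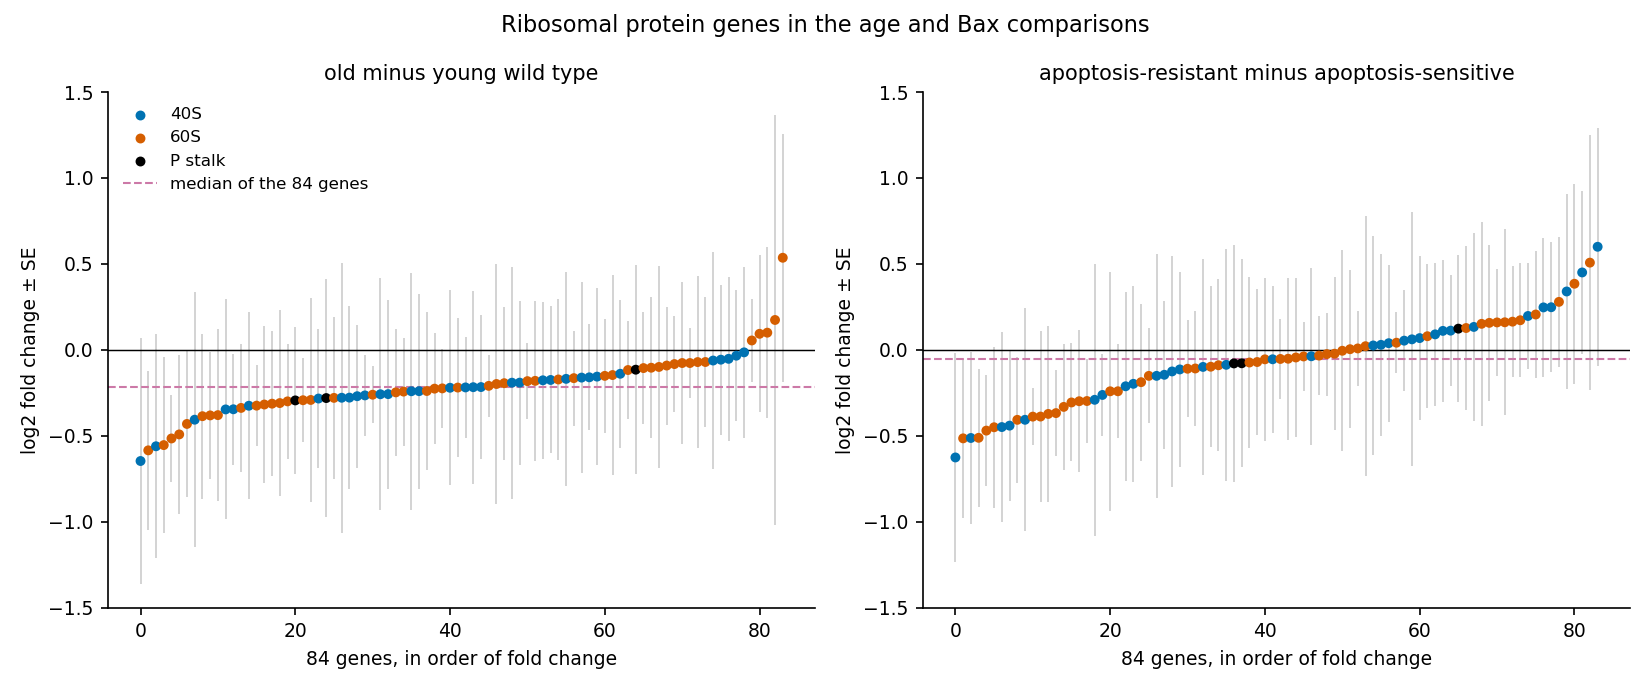
Log2 fold change ± SE of each of the 84 tested genes, in order of value, for old over young wild type (left) and apoptosis-resistant over apoptosis-sensitive (right); the dashed line is the median of the 84 genes and the colours mark 40S, 60S and P stalk. On the left 79 points lie below 0 and on the right 51, with most error bars crossing 0.

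Without overlap between groups, 5 genes were lower in old than in young libraries, against 6.96% of all genes, and 0 were higher, against 9.16%. They were Rpl15, Rpl19, Rpl27a, Rpl30 and Rps6. Rps6, the substrate of S6 kinase, had 14.4, 22.0 and 21.8 CPM in old libraries against 23.2, 24.3 and 22.3 CPM in young libraries. Its log2 fold change was -0.27 ± 0.24 (adjusted p = 0.832, edgeR). Rpl15, a large subunit protein, had 24.8, 24.1 and 24.2 CPM in old libraries against 27.02, 30.8 and 29.8 CPM in young libraries. Rpl19 had 28.9 to 40.6 CPM in old and 42.8 to 47.7 CPM in young libraries, and Rpl30 had 26.2 to 27.6 CPM in old and 30.6 to 32.2 CPM in young libraries.

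By part of the ribosome, 0 of 33 genes of the 40S were above 0 with age (median -0.22), 5 of 48 tested genes of the 60S (median -0.21) and 0 of 3 of the P stalk (median -0.28). The P stalk recruits the elongation factors. Its core protein gene Rplp0 had 131, 704 and 559 CPM in old libraries against 134, 687 and 688 CPM in young libraries. Rplp1 had 56.8, 414 and 241 CPM in old libraries against 60.2, 412 and 392 CPM in young libraries. Rplp2 had 10.7, 28.8 and 16.1 CPM in old libraries against 13.1, 28.5 and 26.3 CPM in young libraries. In each of the 3 genes the groups overlapped, and the log2 ratio of old to young was 0.01 to 0.03 on 11 April and -0.71 to -0.30 on 12 April. Rps19, the gene most often mutated in Diamond-Blackfan anaemia, had 19.5, 57.96 and 40.3 CPM in old libraries against 23.2, 57.3 and 61.2 CPM in young libraries. Rps4x, on the X chromosome, had 51.1, 231 and 199 CPM in old libraries against 72.4, 239 and 224 CPM in young libraries. Rpl41, which encodes the shortest ribosomal protein, had 46.9, 70.5 and 47.3 CPM in old libraries against 29.8, 71.8 and 71.1 CPM in young libraries.

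Some markers of other cells rose with age. Over all genes, 2.01% were called with age without the date block, while 7.89% rose and 7.03% fell with it. None of the 10 B cell markers passed the test, all 10 had a fold change below 0 (median log2 -0.26), and Cr2 and Fcer2a fell with the date block. Their summed level was 13082, 18185 and 18223 CPM in old libraries against 20098, 19926 and 20730 CPM in young libraries, without overlap. Of 6 stromal markers 1 rose in old cells (6 with the date block), and their summed level was 21.5 to 168 CPM in old libraries against 3.12 to 23.3 CPM in young libraries. Of 7 T cell markers 2 rose (5 with the block), at 40.3 to 76.2 CPM summed in old libraries against 35.9 to 71.9 CPM in young libraries. Most of that sum was Lck, the 1 T cell marker below 0, with 60.1, 26.2 and 35.1 CPM in old libraries against 70.5, 34.9 and 34.3 CPM in young libraries. The other 6 were above 0 and the median of the list was 2.93 on the log2 scale. Cd3g, a T cell receptor subunit gene, had 9.54, 5.78 and 3.06 CPM in old libraries against 0.411, 0.300 and 0.395 CPM in young libraries. Of 7 monocyte and macrophage markers 1 rose (4 with the block), at 87.8 to 233 CPM in old against 42.8 CPM on 24 March, 25.04 on 11 April and 157 on 12 April in young libraries. Of 5 NK cell markers, 4 of them tested, 1 rose (4 with the block), at 6.46 to 13.9 CPM in old against 1.31 to 4.61 CPM in young libraries. Cd93, which the sort selects against, fell in old cells by 1.43 on the log2 scale (adjusted p = 0.00514, edgeR). Of 5 plasmacytoid dendritic cell markers 1 (Ccr9) rose, and Ccr9 and Tcf4 with the block, at 639 to 884 CPM summed in old against 639 to 753 CPM in young libraries. Granulocyte, erythroid and plasma cell markers had no member called, and no marker on these lists was at 0 in all libraries. The part of these cells in the ribosomal protein values was not tested. In sorted populations, fewer cells of a type and less RNA per cell cannot be told apart.

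In the Bax comparison 0 of the 84 genes passed, with or without the date block, against 0.0441% of all genes without it and 3.41% with it. At an unadjusted p below 0.05 there was 1 gene, against 4.9% of all genes, and DESeq2 called 0. With the block 10 genes had an unadjusted p below 0.05, against 17.4% of all genes. The median log2 fold change of apoptosis-resistant over apoptosis-sensitive cells was -0.05, against -0.02 over all genes, and 51 of 84 genes were below 0, against 52.7%. The count above 0, which was 33, became 72 without apoptosis-sensitive replicate 3, 54 without apoptosis-resistant replicate 2 and 14 without apoptosis-resistant replicate 3. It was 18 and 16 without apoptosis-sensitive replicates 1 and 2. The median ratio by date was 0.06 on 30 May, 0.01 on 31 May and -0.17 on 7 May. Without apoptosis-resistant replicate 3, of 7 May, the median was -0.25, and without apoptosis-sensitive replicate 3, of the same date, it was 0.25. Without the whole 7 May pair it was 0.00. The apoptosis-resistant library was the lower on all 3 dates in 23 genes, against 23.2% of all genes, and the higher in 9, against 22%. Granulocyte markers summed to 22.2 to 55.7 CPM in apoptosis-resistant libraries against 59.4 to 567 CPM in apoptosis-sensitive libraries, with 0 of 7 called. Erythroid markers summed to 33.6 to 70.7 CPM in apoptosis-resistant libraries against 40.5 to 225 CPM in apoptosis-sensitive libraries, with 6 of 6 below 0 and 0 called. B cell markers summed to 18258 to 18712 CPM in apoptosis-resistant libraries against 19916 to 20242 CPM in apoptosis-sensitive libraries, without overlap, with 0 of 10 called and a median log2 fold change of -0.04. Of the 10, 4 were above 0 and 6 below. The sum leans on Ighm, the most abundant marker, with 6872, 7041 and 7712 CPM in apoptosis-resistant libraries against 9584, 7848 and 8919 CPM in apoptosis-sensitive libraries. Cd93 had 21.1, 16.1 and 16.8 CPM in apoptosis-resistant libraries against 32.1, 31.3 and 33.1 CPM in apoptosis-sensitive libraries, without overlap (log2 fold change -0.84 ± 0.19, adjusted p = 0.22, edgeR), and it fell with the block. Csf1r, a macrophage growth factor receptor, rose with the block, with 4.89, 5.75 and 6.21 CPM in apoptosis-resistant libraries against 2.09, 1.70 and 1.92 CPM in apoptosis-sensitive libraries. The part of these cells in the ribosomal protein values was not tested.

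No single gene passed the test between the Bak1-deficient groups, and those with separate groups are given with their values. Rpl15 had the lowest unadjusted p, with 30.2, 27.8 and 31.5 CPM in apoptosis-resistant libraries against 33.5, 36.2 and 47.4 CPM in apoptosis-sensitive libraries. The groups did not overlap, and the log2 fold change was -0.39 ± 0.17 (adjusted p = 0.967, edgeR). Rpl10a was also lower without overlap, with 42.0, 44.7 and 45.9 CPM in apoptosis-resistant libraries against 56.4, 47.9 and 58.8 CPM in apoptosis-sensitive libraries. Over all genes 8.31% were lower without overlap, and 2 members were. Rpl39 was the 1 member higher without overlap, against 6.31% of all genes, with 0.482, 0.545 and 0.716 CPM in apoptosis-resistant libraries against 0.338, 0.470 and 0.421 CPM in apoptosis-sensitive libraries. These levels rest on 7, 9 and 15 reads in apoptosis-resistant libraries and on 6, 8 and 9 reads in apoptosis-sensitive libraries. The lowest fold changes were -0.63 ± 0.61 for Rps23rg1, -0.51 ± 0.46 for Rpl9, -0.51 ± 0.50 for Rps12 and -0.51 ± 0.40 for Rpl31. The highest were 0.60 ± 0.69 for Rps27rt, 0.51 ± 0.74 for Rpl39, 0.45 ± 0.48 for Rps21 and 0.39 ± 0.58 for Rpl37rt.

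The levels of 6 P stalk and small subunit genes are given in Bak1-deficient cells. Rplp0 had 623, 598 and 871 CPM in apoptosis-resistant libraries against 647, 633 and 928 CPM in apoptosis-sensitive libraries. Rplp2 had 27.6, 27.1 and 37.2 CPM in apoptosis-resistant libraries against 21.5, 17.98 and 44.9 CPM in apoptosis-sensitive libraries. Rps14 had 360.2, 443 and 681 CPM in apoptosis-resistant libraries against 355, 381 and 686 CPM in apoptosis-sensitive libraries. In all 3 genes 7 May was the highest date of both groups. Rpsa had 334, 289 and 414 CPM in apoptosis-resistant libraries against 308, 339.6 and 463 CPM in apoptosis-sensitive libraries. Rps6 had 23.4, 21.9 and 35.3 CPM in apoptosis-resistant libraries against 27.7, 29.8 and 39.2 CPM in apoptosis-sensitive libraries. Rps19 had 73.3, 59.4 and 80.4 CPM in apoptosis-resistant libraries against 50.3, 56.1 and 90.9 CPM in apoptosis-sensitive libraries. In these 3 genes too the groups overlapped and 7 May was the highest date of both groups.

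Across comparisons, 0 of 84 genes differed between the age effect and the Bax effect, against 0.25% of all genes without the date block and 7.03% with it. At an unadjusted p below 0.05 there were 0, against 6.88%, and DESeq2 called 0. With the block there were 8, against 23.6%. The median was -0.13, against 0.01 over all genes, with 61 of 84 genes below 0, against 49.1%. The count above 0, which was 23, became 50 without apoptosis-resistant replicate 3 and 5 without apoptosis-sensitive replicate 3, with medians of 0.07 and -0.45. It was 14 without either of apoptosis-resistant replicates 1 and 2, 37 and 40 without apoptosis-sensitive replicates 1 and 2, and 36 without young replicate 2. Set against young wild type, apoptosis-sensitive cells had 0 genes called, against 0 of 13592 in all, and apoptosis-resistant cells had 0, against 0.162% of all genes. At an unadjusted p below 0.05 there were 2 and 1 members, against 2.73% and 6.13% of all genes, and DESeq2 called 0 in each. The median log2 fold changes were 0.31 in both, against -0.01 and -0.02 over all genes. Above 0 were 66 genes in apoptosis-sensitive cells, against 48.7% of all genes, and 62 in apoptosis-resistant cells, against 47.5%. Without overlap with the young libraries, 6 genes were higher in apoptosis-sensitive cells (Rpl15, Rpl21, Rpl32l, Rpl3l, Rps6 and Rps7), against 4.57% of all genes, and 0 lower, against 4.25%. In apoptosis-resistant cells 6 were higher (among them Rpl21, Rpl3l, Rps15a, Rps23rg1 and Rps24), against 6.64%, and 1 was lower (Rpl10a), against 6.22%. Rpl3l had 0, 1 and 2 reads in young libraries and reached 10 reads only in Bak1-deficient libraries. It thus passed the filter on low counts only through the groups in which it is higher. Its place in both lists, and in both counts at an unadjusted p below 0.05, is therefore no support for a difference. These comparisons share the young libraries and no date. Without the 7 May pair the medians were -0.04 for apoptosis-sensitive and 0.12 for apoptosis-resistant cells, and without the 24 March pair 0.19 and 0.14. Leaving out young replicate 2 brought them to 0.48 for apoptosis-sensitive and 0.57 for apoptosis-resistant cells, leaving out young replicate 3 to 0.44 and 0.50, and leaving out young replicate 1 to 0.20 and 0.14. The apoptosis-sensitive median was -0.03 without replicate 3 of that group, with 39 genes above 0, and the apoptosis-resistant median was 0.13 without replicate 3 of that group, with 50 genes above 0.

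Rps27 and its copy lay on opposite sides of the other dates on 24 March, although their coding sequences are identical. Rps27 had 20.1, 6.65 and 7.84 CPM in old libraries against 35.5, 10.5 and 8.37 CPM in young libraries, and 7.44, 7.93 and 21.6 CPM in apoptosis-resistant libraries against 7.72, 6.58 and 26.8 CPM in apoptosis-sensitive libraries. Rps27rt had 85.2, 378 and 154 CPM in old libraries against 42.8, 352 and 334 CPM in young libraries, and 308, 360.2 and 557 CPM in apoptosis-resistant libraries against 199, 186 and 423 CPM in apoptosis-sensitive libraries. Rps27rt was the higher gene of the pair in all 12 libraries. On 24 March Rps27 was high and Rps27rt low, and on 7 May both were high. The summed level of the pair was 105, 385 and 162 CPM in old libraries against 78.3, 363 and 342 CPM in young libraries. Of the 100-base windows, 98.4% of those of Rps27 and 89.5% of those of Rps27rt occur in another gene. Rps27rt has 374 bases of exon at chr9:114982366-114982739, and Rps27 lies at chr3:90212667-90213648 (GRCm38.p6).

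**Figure D5:**
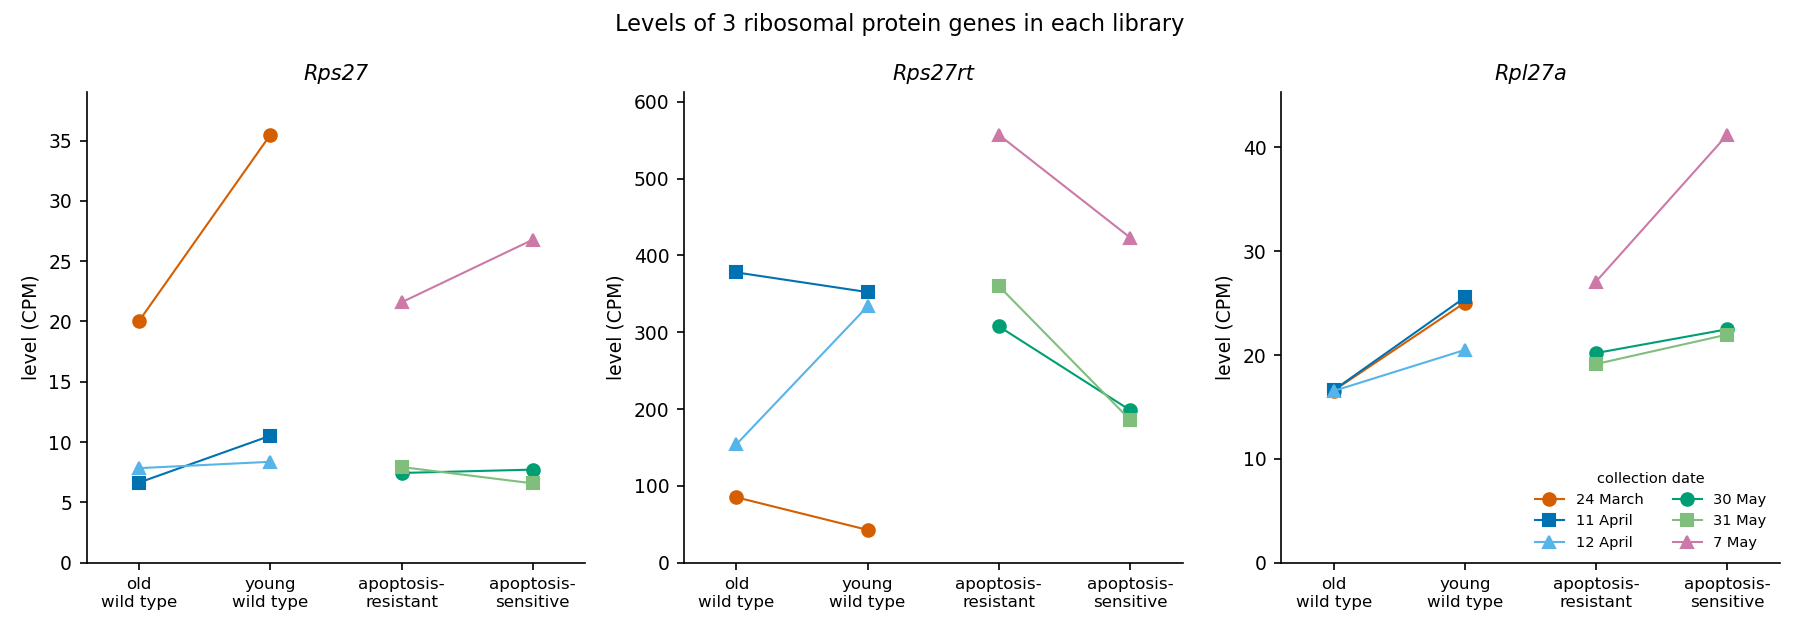
Levels (CPM) of Rps27, Rps27rt and Rpl27a in each library; a point is 1 library and a line joins the libraries of 1 collection date. Rps27 is high on 24 March and 7 May, Rps27rt is low on 24 March, and the 3 old libraries of Rpl27a lie together at 16.5 to 16.6 CPM below the young libraries at 20.5 to 25.6.

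By mean level, Rpl36al and Rpl37rt were above the main gene of their pair, and Rpl3l, Rpl22l1, Rpl32l and Rps23rg1 below it. Rpl36a had 7.04, 12.4 and 10.7 CPM in old libraries against 8.54, 12.97 and 10.3 CPM in young libraries. Rpl36al had 11.6, 24.7 and 17.1 CPM in old libraries against 6.40, 20.8 and 22.7 CPM in young libraries. The lines above show the bases by which reads of these genes can be told apart. Per kilobase of joined exons the values were 23.9 CPM per kb for Rpl36a and 15.6 for Rpl36al. The joined length was 483 bases for Rpl36a and 1353 bases for Rpl36al. The main coding transcript of Rpl36al has 526 bases, so the order per kilobase depends on the length used. Rpl22, whose product also binds RNA outside the ribosome and is needed for lymphocyte development, had 66.5, 201 and 134 CPM in old libraries against 66.9, 202 and 189.9 CPM in young libraries. Its copy Rpl22l1 had 21.7, 17.2 and 15.7 CPM in old libraries against 21.02, 20.2 and 17.5 CPM in young libraries. On 24 March Rpl22 was at its lowest in both groups, while Rpl22l1 was at its highest. In Bak1-deficient cells Rpl22l1 had 15.9, 17.3 and 26.7 CPM in apoptosis-resistant libraries against 20.0, 18.9 and 44.1 CPM in apoptosis-sensitive libraries.

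A few ribosomal protein genes lie outside the name rule. Rack1, a small subunit scaffold, had 185, 629 and 539.7 CPM in old libraries against 195, 636 and 598 CPM in young libraries. Fau, which encodes a fusion with the small subunit protein eS30, had 13.9, 13.5 and 11.4 CPM in old libraries against 20.9, 13.1 and 11.4 CPM in young libraries. On 24 March Rack1 was low and Fau was high within the young group. Neither gene passed with age or Bax. The 36 pseudogene rows of the family took 0.00990% to 0.0485% of the counts in old and 0.00784% to 0.0498% in young libraries, and 24 March was lowest in both groups. None of 22 tested rows passed with age, and 1 (Rps4l) fell with the block, against 7.03% of all genes.

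Other genes of the translation machinery were read against the same dates. The 16 elongation factor and other TOP mRNAs took 0.355%, 1.20% and 1.11% of the counts in old libraries against 0.385%, 1.18% and 1.11% in young libraries. On 24 March 14 of 16 were below all other wild-type libraries, against 29.7% of all genes. Eef1a1, the factor that brings aminoacyl-tRNA to the ribosome, had 647, 4002 and 3707 CPM in old libraries against 849, 4096 and 3839.5 CPM in young libraries. Gas5, a non-coding TOP RNA, went the other way, with 322, 112 and 151 CPM in old libraries against 367, 133 and 111 CPM in young libraries. None of the 16 passed with age or Bax, and with the date block 1 (Eef1g) fell with age, against 7.03% of all genes. With age 13 were below 0 (median log2 -0.09), against 54.3% of all genes (median -0.03). With Bax 15 were below 0 (median log2 -0.15), against 52.7% of all genes (median -0.02).

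The 78 mitochondrial ribosomal protein genes took 0.169%, 0.167% and 0.157% of the counts in old libraries against 0.139%, 0.167% and 0.156% in young libraries. On 24 March 32 of the 77 tested were lower than all other wild-type libraries, against 29.7% of all genes, and 19 were higher, against 26.9%. On 7 May 56 were higher than the other Bak1-deficient libraries, against 22.5% of all genes, and 2 were lower, against 23%. Their median log2 fold change was -0.02 with age and -0.09 with Bax, and 0 passed in either. With the block 1 (Mrps26) rose with age, against 7.89% of all genes.

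Of 21 ribosome assembly genes 0 passed with age or Bax, and with the date block 1 (Polr1a) fell with age, against 7.03% of all genes. Their summed share was 0.178% to 0.239% over all libraries, with no low 24 March pair of the size seen in the ribosomal protein genes (0.197% in the old and 0.178% in the young library). Of 20 regulators 0 passed, and with the block Mtor, Rps6kb1 and Tsc2 fell with age, against 7.03% of all genes that fell. Their median with age was -0.19, against -0.03 over all genes, and 18 of 20 were below 0, against 54.3% of all genes. With the block, Mtor, Tsc1 and Tsc2 were also called lower in the age effect minus the Bax effect, against 7.03% of all genes called in either direction. Myc, which drives transcription of ribosomal protein genes, had 30.9, 32.8 and 41.8 CPM in apoptosis-resistant libraries against 39.3, 40.7 and 149.97 CPM in apoptosis-sensitive libraries, so 1 library of 7 May stood apart (adjusted p = 0.952, edgeR). Larp1 had 176, 225 and 223 CPM in old libraries against 189, 197 and 219 CPM in young libraries.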

How the data were processed

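The deposited values are whole-number read counts per gene, not normalised by the authors, with a column for each of the 12 libraries. The tools named in the submitters' processing notes are Subread and featureCounts, and the build is mm10. For versions, annotation, strand, read length and multi-mapping reads, nothing is given in the sources used here. Libraries were Illumina TruSeq RNA v2, from polyadenylated RNA extracted with Qiagen reagents, per the labels' protocols. Groups, ages and dates came from the labels, and the design text calls the 3 samples of a group biological replicates.

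Symbols and positions came from RefSeq GRCm38.p6, which matched 25275 of 27179 genes, and exon lengths and transcripts from GENCODE M21 (84 of 86 members had an exon length). Counts were scaled by TMM in edgeR 4.0.16 (R 4.3.3) and filtered with filterByExpr (minimum of 10 reads), which left 13592 genes. All 12 libraries were fitted by group with the robust quasi-likelihood test (8 residual degrees of freedom, and 4 with the date block). P values were adjusted by Benjamini-Hochberg over all genes tested, with a threshold of 0.05. The SE is the log2 fold change divided by the root of the F statistic. CPM are after TMM. Ratios of single libraries used log2(CPM + 0.1). The fit was tested on simulated counts drawn without a date effect, so that test does not cover the differences between dates seen here. DESeq2 1.42.0 was an alternative, with other scalings, no filter, 6 libraries, the date block and leaving out libraries.

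The labels give each number of a comparison's groups a shared collection date, so the numbers pair the samples. Deviations of same-date libraries from their group means correlated across all genes at 0.82, 0.62 and 0.61 (old and young) and 0.43, 0.45 and 0.63 (apoptosis-resistant and apoptosis-sensitive). Across the tested ribosomal protein genes the values were 0.94, 0.94 and 0.68 (old and young) and 0.02, 0.04 and 0.35 (apoptosis-resistant and apoptosis-sensitive). Libraries of different dates ran from -0.95 to 0.94 and from -0.38 to 0.54 in these genes. Across all genes they ran from -0.72 to 0.53 and from -0.54 to 0.34. Deviations from a group's mean sum to 0, so an outlying date tends to give the remaining dates deviations of the same sign. These correlations therefore cannot show which libraries are most alike.

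Members and lists were chosen with earlier results of these data known, and the windows of shared sequence, their bands and the settings without the 7 May pair and with the block but without the 24 March pair after seeing the data. Genes named were those past the threshold, the 4 highest and 4 lowest fold changes with age and Bax, the 4 highest and 4 lowest levels per kb, the 3 most and 3 least variable, those without overlap between groups, and a fixed set of core genes and copy pairs. Others (among them Rps28) are named after their values were seen. Some genes that the rule or the counts include are not reported here.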

Additional observations from a re-analysis of the deposited data

How the results depend on the processing

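No ribosomal protein gene was called in any of the 5 comparisons without the replicate block, under DESeq2 size factors, total counts, TMM without ribosomal protein genes, no filter, DESeq2's Wald test, the 6 libraries compared (4 of the comparisons), without either date pair, or without any single library. With the replicate block 2 were called with age, and the block changed no other call in these genes' age, Bax and difference comparisons. The count of all genes called with age was 273 without the block, 2028 with it, 700 by DESeq2 and 1 from the 6 libraries compared. With Bax it was 6, 463, 128 and 5.

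The median log2 fold change with age, -0.22, ran from -0.44 (without old replicate 2) to 0.0271 (without old replicate 1) when single libraries were left out. The median with Bax, -0.05, ran from -0.25 (without apoptosis-resistant replicate 3) to 0.25 (without apoptosis-sensitive replicate 3). The median of the age effect minus the Bax effect, -0.13, ran from -0.45 (without apoptosis-sensitive replicate 3) to 0.0714 (without apoptosis-resistant replicate 3), with -0.40 without old replicate 2 or without young replicate 1. The age median was -0.39 without young replicate 1 and -0.03 without young replicate 2. No other setting moved these 3 medians by more than the replicate spread. Scaling by total counts alone moved the median of all genes with age from -0.03 to 0.07, and that of the ribosomal protein genes to -0.13. Of 1712 alternatives for 41 named genes, 1 (Rpl27a with age under the block) changed a call, and 0 reversed one. Depth limits Rpl3l, Rpl39, Rpl10l and Rpl39l, with few reads each.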
